A study of Mus musculus with 12 samples.

Results

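The transcripts described here are the ones listed under 10 small nucleolar RNA (snoRNA) genes among the RNAs captured with the let-7 family microRNA Mirlet7d in MLE-12, a cell line derived from mouse lung epithelium. The 10 genes are Snord87, Snord19, Snord22, Snord2, Snord57, Snord49a, Snord38a, Snora28, Snora23 and Snora64. They were selected by gene name from the list of promoter-associated non-coding RNAs, where they account for 19 of 2432 transcripts and 10 of 1624 genes. That list holds only transcripts with a pull-down level at least 2.5 times the input level, so enrichment of the 10 genes was a condition of their choice and is described below without a test. Each of the 19 transcripts carries the authors' feature label of a start site plus 2.5 kb.

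Both RNA libraries came from MLE-12 cells that, per the labels' protocols, received 25 nM of biotinylated microRNA and were harvested after 48 h. The first is the Mirlet7d pull-down on streptavidin beads, and the second is its input RNA. The third library is a ChIRP-seq, in which 150 pmol of biotinylated probes against mature Mirlet7d captured chromatin over 4 h. Its labels give a Mirlet7d gain of function, and its own input library was not analysed here. Each group had 1 library, no capture with a control microRNA or control probe was analysed, and no value below has a replicate error. The RPKM steps corresponded to a denominator of 14.967 M reads in the pull-down and 9.6616 M reads in the input. Of 12 lung epithelial markers, 2 were among the mRNA candidates (Lamp3 and Muc1) and 0 were in the promoter-associated list. Of RefSeq's protein-coding genes, unexpressed ones included, 6.88% and 6.31% were named there. Markers of other cell types were named as well, with 2 of 4 endothelial (Kdr and Tek), 1 of 4 fibroblast (Col1a2) and 0 of 3 immune genes among the mRNA candidates, and the immune marker Cd68 in the promoter-associated list. ChIRP-seq peaks named 5 of the 12 lung epithelial markers (Cdh1, Etv5, Krt18, Nkx2-1 and Sftpb), beside 12.8% of protein-coding genes. They also named 1 of 4 fibroblast (Col1a1), 1 of 4 endothelial (Pecam1) and 0 of 3 immune markers. The part of other cell types in the results was not tested. Lists of enriched RNAs give no levels for the other markers, so the identity of the cells could not be checked from them.

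SnoRNAs are short nuclear RNAs that guide the chemical modification of other RNAs, mainly ribosomal RNA, in the nucleolus. Those of the C/D box class (Snord genes) direct 2′-O-methylation with the methyltransferase fibrillarin, and those of the H/ACA box class (Snora genes) direct pseudouridylation with dyskerin. In mammals most are not transcribed on their own: they are cut from introns of host genes, many of which encode ribosomal proteins, translation factors or long non-coding RNAs. In RefSeq's GRCm38.p6 annotation, from which names and gene neighbourhood were taken but no positions, all 10 genes lie inside a host gene. The host is protein coding for 7 of them and a long non-coding RNA for 3.

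The bait is shown because the whole pull-down rests on it. RefSeq (GRCm38.p6, chr13, minus strand) gives these mature sequences of Mirlet7d, 5′ to 3′, with the seed (bases 2 to 8) in capitals. The labels do not say which arm was synthesised.
mmu-let-7d-5p (chr13:48536078-48536099): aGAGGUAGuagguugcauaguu
mmu-let-7d-3p (chr13:48536024-48536045): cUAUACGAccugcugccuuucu

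What was measured under each snoRNA name is the level over the span of a longer non-coding transcript of the NONCODE catalogue, and not the snoRNA alone. The 19 spans were 470 to 3038 bases long with a median of 1268 bases, against a median of 2431 in the whole list. For 10 of 10 genes the snoRNA annotated by RefSeq was shorter than the shortest of its spans. For Snora28 the deposited distance of a ChIRP-seq peak placed the annotated start inside the span. For the other 9 genes the position of the snoRNA within or beside each span was not determined, and a span may hold none. Of the 4 Snora64 spans, which do not overlap, not all can hold it. Reads from the snoRNA, from its host's introns or exons and from other snoRNAs of the same host therefore could not be told apart. By RefSeq neighbourhood, the host of Snord22 holds 7 other snoRNA genes, those of Snord2 and Snord57 hold 4 each, and those of Snord87 and Snora28 hold 0.

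The 19 transcripts spanned a wide range of levels. In the pull-down they ran from 2.266 to 122.205 RPKM with a median of 23.8, and in the input from 0.086 to 43.483 RPKM with a median of 3.48. Over the 2432 transcripts of the list the medians were 3.95 RPKM in the pull-down and 0.918 RPKM in the input. Their fold, the authors' deposited quotient of pull-down and input RPKM, ran from 2.54 to 168.98 with a median of 6.81, beside 5.125 for the list. A fold of at least 10 was reached by 7 of the 19 transcripts, all of them of Snord87, Snord19 or Snora64. The input of 1 of these, a Snord87 transcript, was listed as exactly 1 RPKM. In the list as a whole a fold of at least 10 was reached by 25% of the transcripts. Since the list was cut on this same fold, nothing is read from the difference.

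**Figure D1:**
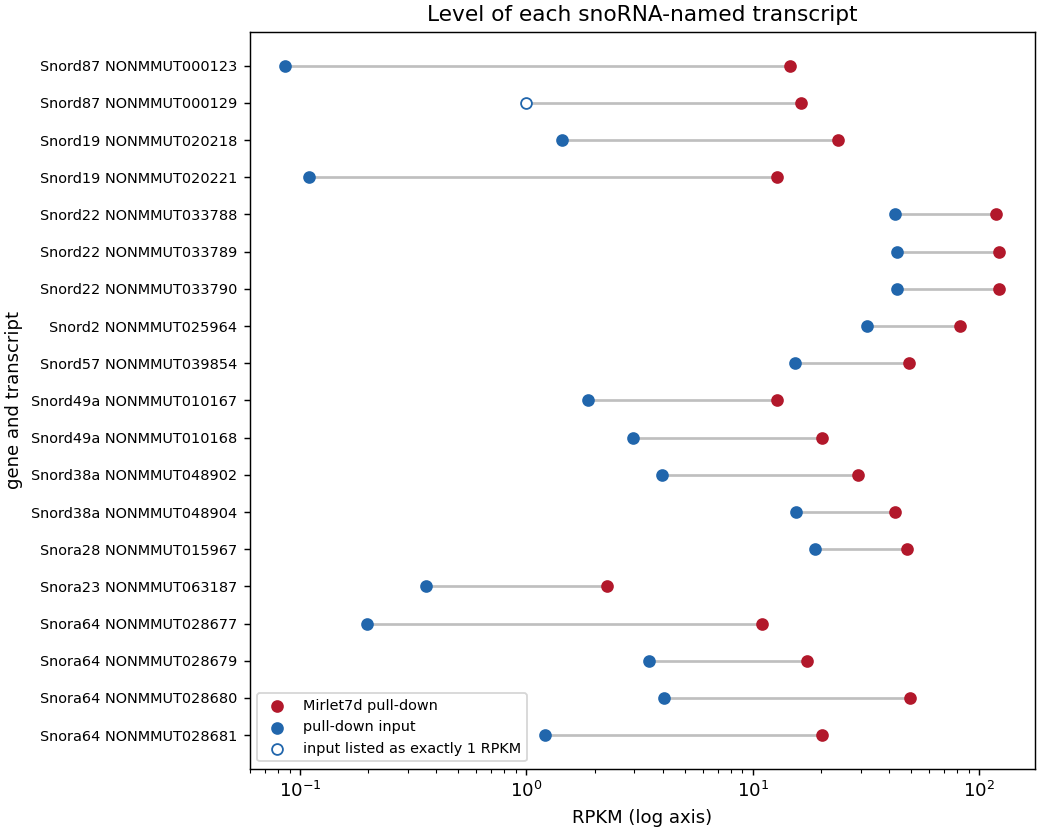
RPKM of each of the 19 transcripts in the Mirlet7d pull-down (red) and in its input (blue) on a log axis, 1 library each; the grey line joins the 2 values. The pull-down values lie between 2.266 and 122.205 RPKM, while the input values reach down to 0.086 RPKM; the open circle is the Snord87 input listed as exactly 1 RPKM.

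Snord87 had the highest fold of the 10 genes. Its human counterpart guides methylation of the large-subunit ribosomal RNA, and its host is Snhg6, a long non-coding RNA gene, and RefSeq places it within Mcmdc2 as well. The longer transcript, NONMMUT000123 (mm9, chr1:9932104-9933304), was listed at 14.532 RPKM in the pull-down and 0.086 RPKM in the input. This is a fold of 168.98, rank 5 among the 2432 transcripts of the list. It rests on 261 pull-down reads and 1 input read. With reads taken as pairs, the 95% exact interval ran from 14.9 to 3365, and because the lone input read entered it as a whole pair, the ratio it is built on is smaller than 168.98.

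The second Snord87 transcript, NONMMUT000129 (chr1:9932283-9933222), lies inside the first. It had 16.365 RPKM in the pull-down and an input listed as exactly 1 RPKM, a fold of 16.37. An input of 1 RPKM would be 9.07 reads for this span, whereas the longer span around it had 1 read. Inputs of exactly 1 RPKM stand at 1563 ncRNA candidates, and for 29.9% of these the value came within 0.15 reads of a whole number, against 100% of the other input values examined. The 16.37 is thus no measured ratio of reads, and it was left without an interval.

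Snord19 was the other gene past a fold of 100. It is a C/D box snoRNA whose human counterpart guides methylation of the small-subunit ribosomal RNA, and its host Gnl3 encodes nucleostemin, a nucleolar GTPase. The transcript NONMMUT020221 (chr14:31830308-31832200) had 12.854 RPKM in the pull-down and 0.109 RPKM in the input. Its fold of 117.93 ranked 11 in the list and rests on 364 pull-down and 2 input reads, with an interval from 20.8 to 4666. The neighbouring transcript NONMMUT020218 (chr14:31828461-31830116) begins farther left and ends 192 bases before the first one starts. It had 23.778 RPKM in the pull-down and 1.438 RPKM in the input, a fold of 16.54 (interval 8.95 to 31.1) from 589 and 23 reads. The intervals of these 2 spans overlapped, and the pull-down level was higher in the span with the lower fold.

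At Snora64 the listed folds ranged from 5 to 55.54, with intervals that all overlapped. This H/ACA box snoRNA, whose human counterpart guides pseudouridylation of the large-subunit ribosomal RNA, lies in Rps2, the gene of a small-subunit ribosomal protein. The 4 spans listed under it do not overlap and are separated by gaps of 142, 135 and 33 bases between chr17:24857207 and 24861339. From left to right the first, NONMMUT028677, had 10.997 RPKM in the pull-down and 0.198 RPKM in the input, a fold of 55.54 (interval 9.70 to 2218) on 2 input reads. The second, NONMMUT028679, had 17.405 and 3.479 RPKM in pull-down and input and a fold of 5 (2.39 to 12.1). The fold thus was far higher in the first of these neighbouring spans, although their intervals overlapped. NONMMUT028680 had 49.685 RPKM in the pull-down and 4.042 RPKM in the input, a fold of 12.29 (6.61 to 23.2). NONMMUT028681 had 20.255 RPKM in the pull-down and 1.209 RPKM in the input, a fold of 16.75 (8.98 to 35.4). The highest pull-down level at Snora64 was thus in the span with the third highest fold, and the highest fold in the span with the lowest input. By RefSeq neighbourhood Snora78 also lies within Rps2, and the 4 spans need not come from 1 RNA.

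**Figure D2:**
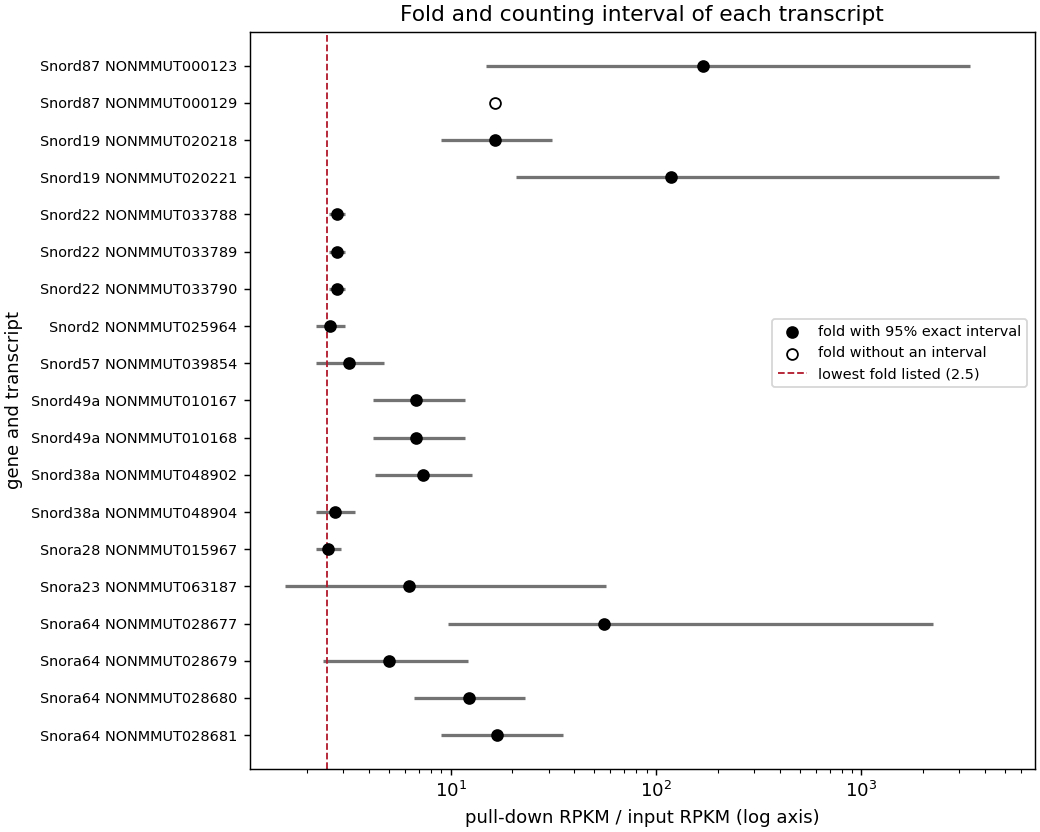
Fold of pull-down over input RPKM for each of the 19 transcripts on a log axis, with the 95% exact interval from recovered read pairs (bars, counting error only) and the lowest fold listed, 2.5 (dashed line). The 3 highest folds, at Snord87, Snord19 and Snora64, have the widest bars, and the Snord22, Snord2 and Snora28 folds sit close to the dashed line.

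Snord49a, Snora23 and 1 of the 2 Snord38a transcripts had folds of 6.29 to 7.37, while the other Snord38a fold was among the lowest. Snord38a, whose human counterpart guides methylation of the large-subunit ribosomal RNA, had 2 overlapping spans on chromosome 4. NONMMUT048902 (chr4:116826977-116827786) had 29.236 RPKM in the pull-down and 3.966 RPKM in the input, a fold of 7.37 (interval 4.28 to 12.8). NONMMUT048904 (chr4:116827291-116828677) had 42.566 RPKM in the pull-down and 15.458 RPKM in the input, a fold of 2.75 (2.21 to 3.43). The 2 intervals did not overlap, although the spans overlap and share an unknown part of their reads.

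The 2 Snord49a transcripts carried the same reads. Snord49a guides methylation of the large-subunit ribosomal RNA in human cells, and in mouse it lies in the long non-coding gene 2410006H16Rik. NONMMUT010168 (chr11:62419269-62420525) had 20.214 RPKM in the pull-down and 2.967 RPKM in the input, and NONMMUT010167 (chr11:62419268-62421250) had 12.81 RPKM in the pull-down and 1.88 RPKM in the input. Both come to 380 pull-down and 36 input reads and to a fold of 6.81 (4.20 to 11.7), so they are 1 measurement divided by 2 lengths.

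Snora23 was the weakest of the 10 genes in the pull-down. It is an H/ACA box snoRNA, a guide for the large-subunit ribosomal RNA in human cells, in Ipo7, the gene of a nuclear import receptor. Its single transcript NONMMUT063187 (chr7:117188907-117190057) had 2.266 RPKM in the pull-down and 0.36 RPKM in the input. The fold of 6.29 rests on 39 pull-down and 4 input reads, and its interval from 1.57 to 57.0 includes the listing limit of 2.5.

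The remaining 4 genes were abundant in both libraries and only modestly enriched. Snord22, needed in Xenopus for the processing of small-subunit ribosomal RNA, lies in the long non-coding gene Snhg1 with 7 other snoRNA genes. Its 3 overlapping transcripts on chromosome 19 had 118.826, 122.205 and 122.164 RPKM in the pull-down and 42.28, 43.483 and 43.468 RPKM in the input. All 3 hold the same 5403 pull-down and 1241 input reads and the same fold of 2.81, with an interval from 2.57 to 3.07. Theirs were the highest levels among the 19 transcripts in both libraries, ranks 25 to 27 in the pull-down and 23 to 25 in the input.

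Snord2, which lies in the gene of the RNA helicase Eif4a2, an initiation factor, and guides methylation of the large-subunit ribosomal RNA in human cells, had 82.621 RPKM in the pull-down and 31.835 RPKM in the input (NONMMUT025964, chr16:23110745-23112013). Its fold was 2.6 (interval 2.22 to 3.05). Snord57, which lies in Nop56, the gene of a core protein of the C/D box particles themselves, and guides methylation of the small-subunit ribosomal RNA in human cells, had 49.186 RPKM in the pull-down and 15.415 RPKM in the input (NONMMUT039854, chr2:130101532-130102002). Its fold was 3.19 (2.21 to 4.73). Snora28, which lies in the translation initiation factor gene Eif5 and in human cells guides pseudouridylation of the small-subunit ribosomal RNA, had 47.756 RPKM in the pull-down and 18.812 RPKM in the input (NONMMUT015967, chr12:112777242-112779938). Its fold of 2.54 (2.21 to 2.93) was the lowest of the 19. No transcript under 2.5 is listed, so values just outside the limit are not known.

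Of the 18 transcripts with an interval, 12 had a lower bound above 2.5, beside 51.6% of the list's transcripts with an interval. The 12 include the Snord22 and Snord49a transcripts that share the same reads. Counting overlapping transcripts with equal reads once, chosen after seeing the data, left 9 of 15. The list's share was not merged in this way. The 6 whose interval reached below 2.5 belonged to Snord2, Snord57, Snord38a, Snora23, Snora28 and Snora64, 1 transcript each. All 18 lower bounds exceeded 1, which the listing limit favours because it acted on the same reads. The 13 C/D box transcripts had a median fold of 6.81 and the 6 H/ACA box transcripts 9.29, with ranges of 2.6 to 168.98 and 2.54 to 55.54 that overlapped.

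Among the 10 genes, the fold tended to be lower where the input level was higher. Divided at an input of 10 RPKM, a boundary chosen after the values were seen, 7 transcripts of 5 genes lay above it, with folds of 2.54 to 3.19 and a median of 2.81. The other 12 transcripts of 6 genes had folds of 5 to 168.98 and a median of 14.33, and Snord38a had a transcript on either side. In the whole list, the 98 transcripts above 10 RPKM had a median fold of 2.83 and a maximum of 8.15, and the 2334 others a median of 5.28. Spearman's rho between input and fold was -0.86 over the 19 transcripts and -0.50 over the 2432. Input is the divisor of the fold and several transcripts share reads, so these coefficients are given as a description only. Of the 18 transcripts with a recovered input, 4 had at most 4 input reads, beside 25.7% of the list's transcripts, and 3 of these 4 carried the 3 highest folds.

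**Figure D3:**
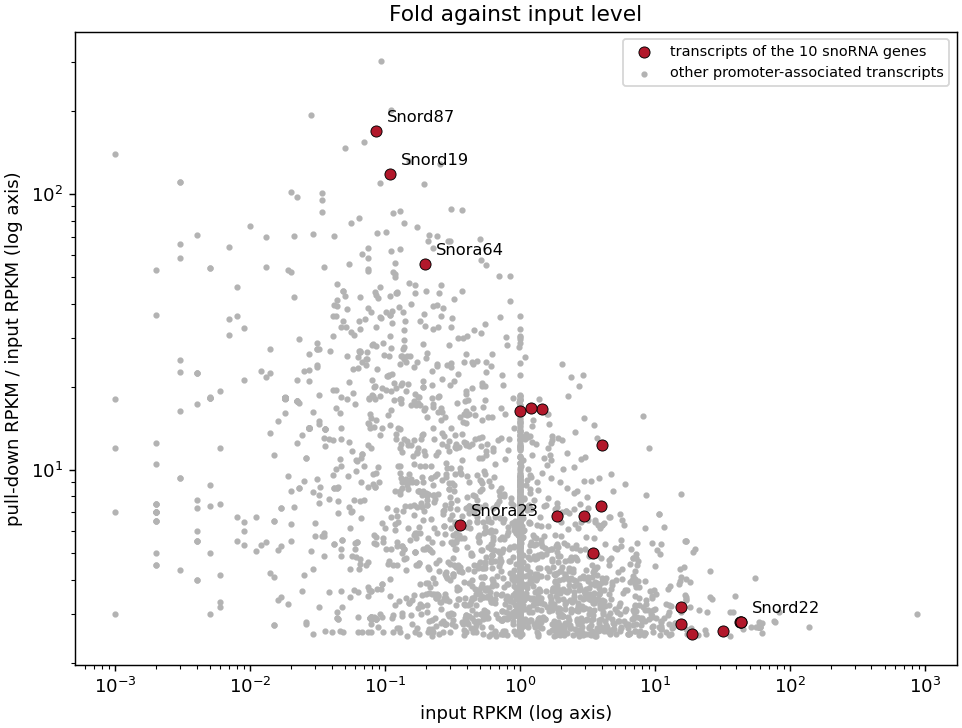
Fold against input RPKM, both on log axes, for the 19 transcripts of the 10 snoRNA genes (red) and the other transcripts of the promoter-associated list (grey), 1 pull-down and 1 input library. The red points above an input of 10 RPKM have folds of 2.54 to 3.19, and the highest red points have inputs of 0.086 to 0.198 RPKM; the vertical row of grey points is the input listed as exactly 1 RPKM.

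For the highest fold of each gene, the nearest transcripts in fold were sought with the 10 genes themselves left out. Those found carried no snoRNA name. Only 10 other transcripts of the list have a snoRNA or Cajal body RNA name, so nothing is read from this. Where folds tied, 1 transcript per side was taken by order of catalogue number. Just above and below the higher Snord87 fold stood transcripts of Riok3 (169.62, from 14.248 RPKM in the pull-down and 0.084 RPKM in the input) and Rpp30 (154.64). Around the higher Snord19 fold stood Samd10 (128.29) and Acvr1 (110.67), the second with 0.332 RPKM in the pull-down and 0.003 RPKM in the input. Folds of similar size thus stood on unequal levels. The Snord22 fold of 2.81 was shared by several transcripts, among them ones of Hnrnpa0, Rpl36, Socs6 and the snoRNA host Gas5. The Gas5 transcript had 165.325 RPKM in the pull-down and 58.926 RPKM in the input. Next to Snora28 stood 1700113A16Rik (2.54) and Hmgb2 (2.53), each 1 of several transcripts with that fold.

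The rest of the list held 4 more genes with a snoRNA or Cajal body RNA name, with 10 transcripts. Snora5c had 11.978 RPKM in the pull-down and 0.482 RPKM in the input, a fold of 24.85 (interval 6.65 to 209) on 4 input reads. Snora16a, in Snhg12, had 7 transcripts with folds of 3.15 to 4.1. Snord1b, in Snhg16, had 27.261 RPKM in the pull-down and 10.872 RPKM in the input, and its fold of 2.51 was nearest of all snoRNA names to the limit. Scarna6 had a fold of 7.09 on an input of exactly 1 RPKM. The median of these 10 folds was 3.6, against 6.81 for the 19 transcripts. The 10 genes were proposed with these values known, so the difference was not tested.

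The host genes were not listed under their own names. Of the 10 hosts, among them Snhg6, Gnl3, Snhg1, Eif4a2, Nop56 and Eif5, 0 were among the mRNA candidates and 0 gave their name to an entry of the promoter-associated list. Of all RefSeq protein-coding and long non-coding genes, unexpressed ones included, 4.35% were named among the mRNA candidates and 4.42% in the promoter-associated list. For protein-coding genes alone, the kind of 7 of the 10 hosts, the shares were 6.88% and 6.31%. The mRNA candidates named 1506 genes on either base, hence no long non-coding ones. Spans listed under a snoRNA name may hold RNA of its host. A count of 0 by name therefore does not show that host RNA was absent. Among 34 other known snoRNA hosts, 9 were named in the promoter-associated list and 2 among the mRNA candidates (Eef2, fold 3.69, and Rps12, fold 2.66). These hosts were listed with earlier results known, and their share was not tested. Gas5 had 20 transcripts with folds of 2.69 to 4.05, Snhg5 had 8 with folds of 6.48 to 12.85, and Snhg8 had 3 with folds of 6.12 to 15.93. Within 10 kb of the 10 loci, further ncRNA candidates stood at 2 of them. The share over all genes of the list was not determined, so nothing is read from this count. One listed under Slc3a2 lay 192 bases from the Snord22 spans with a fold of 5.17, and 2 listed under Idh3b lay over 8 kb from the Snord57 span with folds of 3.46 and 3.72.

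Genes of the snoRNA machinery are all protein coding, and of RefSeq's protein-coding genes, unexpressed ones included, 6.88% were named among the mRNA candidates and 6.31% in the promoter-associated list. Of the 4 C/D box core proteins (fibrillarin, Nop56, Nop58 and Snu13) 0 had a listed mRNA or promoter-associated RNA. Of the 4 H/ACA box proteins, Nhp2 was listed as an mRNA (6.453 RPKM in the pull-down and 0.674 RPKM in the input, fold 9.57) and with a promoter-associated transcript (20.822 and 2.066 RPKM in pull-down and input, fold 10.08, interval 7.13 to 14.3). Dkc1, the gene of dyskerin, had a promoter-associated transcript with a fold of 2.63 on an input of exactly 1 RPKM. Of 12 assembly factors, 1 was among the mRNA candidates (Rpap3, fold 7.73) and 0 were in the promoter-associated list. Of 15 genes of the nuclear exosome and snoRNA 3′ trimming, the exosome subunit gene Exosc3 (9.07) and the exosome cofactor gene Mphosph6 (5.14) were mRNA candidates, and 0 were in the promoter-associated list.

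ChIRP-seq asks whether the same loci were also captured as chromatin. A peak was no condition for a gene to be among the 10, but they were chosen with these peaks known, so the counts are a description. Of the 10 genes, 1 was named as nearest to a peak, Snora28, compared with 17.3% of the genes in the promoter-associated list. A peak within 10 kb of a span was found for 4 of the 10, Snora28, Snord2, Snord57 and Snord22, compared with 14.9% of the list's genes. With 10 genes, 1 gene more or fewer moves such a share by 10 percentage points, and no test was made. The nearest peak lay 36103 bases away for Snora23 and 42814 bases for Snord19. For the other 4 genes it lay between 445478 bases (Snord38a) and 2882417 bases (Snord87). Snord87, Snord19 and Snora64, the 3 genes with a fold of at least 10, thus had no peak within 10 kb. Peaks were unevenly spread, counted per Mb up to the last peak of each chromosome. There were 5.54 per Mb on chromosome 19 (Snord22) and 3.94 on chromosome 16 (Snord2). Chromosomes other than 11, 16 and 19 that hold one of the 10 genes had 0.611 to 0.993. Chromosome 11, with 5.14 per Mb, holds Snord49a, which had no peak within 100 kb, and Snora28 and Snord57 lie on chromosomes of low density. The part of this density in the 4 cases was not tested.

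At Snora28 the peak (chr12:112777556-112778213, deposited MACS score 41.11) lay wholly inside the pulled-down span, on exon 3 of Eif5 per the deposited annotation. Its TSS distance to Snora28 was -1273 bases, and the span itself ran from -1915 to 781 bases of that start. With the strand taken from Eif5, the peak ended at -944 bases and so did not reach the Snora28 start. At Snord2 the peak (chr16:23107033-23108329, score 50.32) covered the start of the host Eif4a2, reaching from 519 bases before it to 777 bases after it. The Snord2 span began 3193 bases downstream of the same start, 2416 bases from the peak. At Snord57 the peak (chr2:130097968-130098541, score 47.38) had a TSS distance of -1894 bases to the host Nop56, and the span lay 1384 to 1854 bases downstream of that start. At Snord22 the nearest peak (score 33.67) was 6040 bases from the spans and was assigned to Wdr74. Scores of all peaks began at 30.01.

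**Figure D4:**
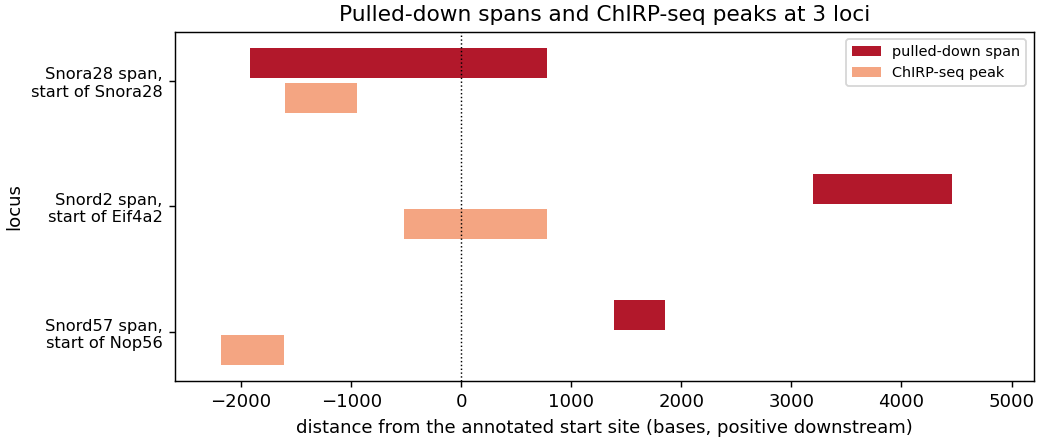
Position of the pulled-down span (red) and of the ChIRP-seq peak (orange) relative to the annotated start site of the gene the peak was assigned to, in bases of mm9, at the Snora28, Snord2 and Snord57 loci. The Snora28 peak lies inside the span, while the Eif4a2 peak covers the start site and the Nop56 peak lies upstream of it, 2416 and 2991 bases from the spans.

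The Eif4a2 promoter is shown because it is the only host start site covered by one of these peaks. The sequence is RefSeq's for GRCm38.p6 (chr16:23107218-23107517, plus strand), a build other than that of the peaks, with 250 bases before the start in lower case and 50 bases after it in capitals.
Eif4a2 promoter: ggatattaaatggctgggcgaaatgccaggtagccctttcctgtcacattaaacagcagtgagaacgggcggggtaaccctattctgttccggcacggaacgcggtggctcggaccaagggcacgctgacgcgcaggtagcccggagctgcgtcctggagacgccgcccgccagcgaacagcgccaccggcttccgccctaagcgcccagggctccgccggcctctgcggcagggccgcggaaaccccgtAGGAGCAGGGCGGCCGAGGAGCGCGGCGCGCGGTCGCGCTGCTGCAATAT

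A promoter window of this length was found for 8 of the 10 hosts. The complement of the let-7d-5p seed, CTACCTC, was searched on both strands. It occurred in 0 of the 8 host windows and in 3.85% of the 32851 windows of the table. With so few host windows nothing is read from the 0, and no count was made for the let-7d-3p seed. G and C made up 67.7% of the Eif4a2 window and 56.3 to 80.3% of the 8 host windows, against a median of 52.7% over the whole table.

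Other snoRNA and Cajal body RNA genes were also named by ChIRP-seq peaks. The 9 such peaks belonged to 8 genes, and 6 of the 9 lay within 10 kb of the start site, beside 42.6% of all 4286 peaks. Snora21 had the highest score, 71.02, at 2604 bases from its start, and the peaks of Snora17 and Snora7a (35.37 and 32.03) lay at 203 and -51 bases. Snora28 was the 1 name shared with the pull-down, 7.14% of the 14 snoRNA and Cajal body RNA names of the promoter-associated list and 12.5% of the 8 names with a peak. Near Snord1b, a peak with a score of 47.23 stood at the promoter of its host Snhg16, 3728 bases from the pulled-down span. Snhg16 and Snhg20 were the 2 of 34 other hosts named by a peak, beside 8.77% of RefSeq protein-coding and long non-coding genes. The Snhg20 peak (31.94) was intergenic, at -41451 bases from the start. Among the snoRNA machinery, the C/D box protein gene Nop56 was the 1 of 4 with a peak, beside 12.8% of protein-coding genes. Of the 12 assembly factors 4 had one, with Nolc1, the gene of a nucleolar chaperone of snoRNPs, highest at 67.06 and -200 bases from its start. The others were assigned intergenic peaks with scores close to the lowest of all peaks. These lay at 83586 bases for Naf1 (30.22), 79667 for Rpap3 (30.15), and -3990 and -5672 for Shq1 (30.39 and 30.14). Exosc6 (49.46) and Tent4b (51.93) were the 2 of 15 exosome and trimming genes with a peak.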

How the data were processed

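RNA tables of the Mirlet7d pull-down and its input, and a ChIRP-seq peak list, were analysed. Per the submitters' processing notes, the RNA libraries went through HOMER, bedtools 2.15, Picard 1.119, Trimmomatic, FastQC, SAMtools and Bowtie2, and ChIRP-seq through MACS and HOMER among others, on genome mm9; which step each tool did is not given in the sources used here. Per the labels' protocols, ribosomal RNA was depleted and the pull-down and input libraries were pre-amplified, so read copies are not separable. The deposited levels are RPKM, rounded by the authors to 3 decimals, over the span of each transcript. The deposited fold is the ratio of pull-down to input RPKM, and differed from that quotient by at most 0.005. Each peak's score is the authors' MACS score and serves only to describe peaks within this list. Coordinates are mm9, as deposited.

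RPKM multiplied by length fell on whole multiples of 1 step. Of 4472 pull-down and 4174 input values under 300 reads with enough decimals, inputs of exactly 1 left out, 100% lay within 0.15 reads of a whole number. Because 79.8% of input numbers were even, intervals of the fold were computed from pairs, odd numbers rounded up, as exact Clopper-Pearson intervals (95%, scipy 1.17.1). They cover counting error only and compare 2 libraries. The step search was tested on simulated data. All 10 names matched RefSeq (GRCm38.p6), whose promoter and microRNA tables gave the sequences.

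The members and gene lists were chosen with earlier results of these data known. Named are the 10 genes, other snoRNA and scaRNA names, and lists of hosts, snoRNP proteins, assembly factors and trimming genes. Transcripts nearest in fold on each side of a member were also listed, and those of 4 members are named. Tables of the other samples were not analysed here, and the host of 1 member is not reported here. Alternatives were another fold threshold, dropping low inputs, 1 value per gene, and other links to peaks.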

Additional observations from a re-analysis of the deposited data

How the results depend on the processing

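The count of 7 transcripts with a fold of at least 10 depended on the threshold and on low inputs. It was 12 of 19 at a fold of 5 and 3 of 19 at a fold of 20, beside 51.1% and 10.8% of the list's transcripts. Without inputs of exactly 1 RPKM it was 6 of 18, beside 28% of the list. It was 3 of 14, beside 13.0% of the list, when transcripts with under 5 input reads or an input of exactly 1 RPKM were left out, and 2 of 18, beside 3.49% of the list, when the lower bound of the interval had to pass 10, an alternative chosen after seeing the data. Fewer transcripts enter under the read filter by construction. Counting overlapping transcripts with equal reads once, also chosen after seeing the data, left 16 values and the count at 7. The median fold of 6.81 was 4.095 with the lowest fold of each gene, where the list's median was 4.535 and thus the higher of the pair, and 6.55 to 7.09 under the other alternatives. Genes with a ChIRP-seq peak numbered 1 by nearest name, by overlap with a span and with scores of at least 40. The shares of the list's genes were 17.3%, 5.67% and 5.97% in that order. Within 10 kb and 100 kb the numbers were 4 and 6, beside 14.9% and 44.8% of the list's genes. With single reads in place of pairs, 13 intervals lay above 2.5 in place of 12. Quotients of recovered reads differed from the 18 deposited folds by at most 0.377%. No paired analysis was possible because each group had 1 library. Depth limits the highest folds most, since inputs of 1 or 2 reads lie behind Snord87, Snord19 and the first Snora64 span.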
